A study of Mus musculus with 8 samples.

Results

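The serpins described here are protease inhibitors by which a killer T cell is thought to protect itself from the proteases it carries. Of 5 listed genes (Serpinb9, Serpinb6a, Serpinb6b, Serpinb1a and Serpina3g), 4 had at least 1 probe set whose platform annotation gave that symbol alone, and they were read from 5 probe sets out of 22626. Serpina3g, which encodes an inhibitor of lysosomal cathepsins, had no such probe set and was not analysed here. Serpinb9, Serpinb6a and Serpinb6b were among the 8003 genes tested out of 12393 measured genes; Serpinb1a, with a mean of 6.80, lay just under the level of 6.87 (the 40th percentile of probe set means) below which genes were not tested.

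The arrays measured CD8 T cells from OT-1 animals, whose transgenic receptor recognises an ovalbumin peptide. After activation they spent 4 h with peptide-loaded ID8 cells, a mouse ovarian cancer line, with 30 T cells to each target cell; magnetic recovery followed. T cells of each of 4 mice, A to D, were divided between PD-L1-overexpressing ID8 cells and PD-L1-depleted ID8 cells, which gave 4 arrays per group; every group thus carried the OT-1 receptor, the activation and the peptide, and no array of T cells without targets was among the samples. The labels give neither the age of the mice nor how the level of PD-L1, which engages the inhibitory receptor PD-1, was changed in the targets. Values are deposited log2 expression values (at most 15.24), and the number of arrays, 8, limits the precision.

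A serpin inhibits by offering an exposed loop to a protease. The protease cuts the loop and stays bound to it, so each inhibitor molecule is used once. Cytotoxic T cells store granzymes, serine proteases that trigger death of the target, and can be harmed if these leak into their own cytosol. Serpinb9 (Spi6) inhibits granzyme B, and mouse Serpinb6b inhibits granzyme A. Serpinb6a (Spi3) inhibits cathepsin G among other proteases, and Serpinb1a, a mouse counterpart of human SERPINB1, inhibits the elastase and related proteases of neutrophils. In the reference annotation all 4 measured genes lie on chromosome 13, in a row of 16 Serpinb genes that starts with Serpinb1a, holds Serpinb6b and Serpinb9 side by side, and ends with Serpinb6a.

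The sequences around the start sites of the 3 tested genes are shown, each a window of 300 bases, most of it upstream (RefSeq, GRCm38.p6, written 5′ to 3′). RefSeq sequences of this kind matched 4 of the 5 listed genes; for Serpinb6a the first of 2 start sites is shown. Capitals mark matches to the interferon-stimulated response element core GAAANNGAAA, to the gamma-activated site TTCNNNGAA or to the Ets core CCGGAA, on either strand; GGGANNTTCC, a form of the NF-kB motif, was searched too.
Serpinb9, chr13:33004291-33004590, plus strand: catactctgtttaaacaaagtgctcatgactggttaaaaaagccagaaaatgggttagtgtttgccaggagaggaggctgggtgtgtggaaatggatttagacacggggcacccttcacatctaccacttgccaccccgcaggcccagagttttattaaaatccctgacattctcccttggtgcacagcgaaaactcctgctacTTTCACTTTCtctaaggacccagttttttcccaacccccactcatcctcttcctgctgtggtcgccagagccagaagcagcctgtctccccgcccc
Serpinb6a, chr13:34002745-34003044, minus strand: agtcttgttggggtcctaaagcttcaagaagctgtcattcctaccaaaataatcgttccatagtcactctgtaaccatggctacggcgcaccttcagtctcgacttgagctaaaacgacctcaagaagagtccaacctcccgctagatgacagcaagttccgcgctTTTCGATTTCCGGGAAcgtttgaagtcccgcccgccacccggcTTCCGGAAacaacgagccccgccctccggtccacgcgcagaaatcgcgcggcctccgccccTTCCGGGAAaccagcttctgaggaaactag
Serpinb6b, chr13:32965011-32965310, plus strand: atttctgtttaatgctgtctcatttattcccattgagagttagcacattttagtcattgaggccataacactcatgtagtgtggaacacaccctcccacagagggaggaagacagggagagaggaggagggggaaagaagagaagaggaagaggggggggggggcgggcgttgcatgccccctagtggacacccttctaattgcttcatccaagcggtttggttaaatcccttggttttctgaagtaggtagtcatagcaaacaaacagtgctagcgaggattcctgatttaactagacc

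Serpinb9 held 1 response element core, at bases 205 to 214 of its window. Serpinb6a held 1 response element core at bases 167 to 176, 2 gamma-activated sites at bases 174 to 182 and 271 to 279, and 4 Ets cores, 2 of which lie inside the gamma-activated sites; the first of these sites also overlaps the response element core. No match to the 4 motifs was found in these letters for Serpinb6b, and none to the NF-kB form in any of the 3. The window of the second Serpinb6a start site, not shown, held no match to any of the 4 motifs either. Of 32851 mouse windows of this length, 3.44% held the response element core, 8.30% the gamma-activated site, 1.47% the NF-kB form and 14.9% the Ets core. The motifs were chosen with the sequences in view, and any part of them in the serpin levels or in the differences between animals was not tested.

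The first comparison asked whether T cells express these inhibitors differently after meeting targets that make much or little of this ligand. None of the 3 tested serpins passed the test between targets, nor did any gene (limma, 0 of 8003 genes, 0% called; 228 genes had an unadjusted p under 0.05). The members' differences were small. The median over the 3 was -0.022 on the log2 scale, against 0.0033 over all genes tested, and the median size was 0.032, against 0.029.

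Serpinb9 stood at 12.24 (mouse A), 12.14 (B), 12.08 (C) and 12.01 (D) with PD-L1-overexpressing targets. With PD-L1-depleted targets it stood at 12.28 (mouse A), 12.11 (B), 12.18 (C) and 12.03 (D). The groups overlapped throughout, mouse A was highest and mouse D lowest with either target, and the difference was negative in 3 of 4 mice. The mean was 12.12 ± 0.099 with PD-L1-overexpressing targets, against 12.15 ± 0.10 with PD-L1-depleted ones (SD, n = 4 each), a difference of -0.032 (SE 0.026; limma adjusted p = 0.9995), with a 95% interval of 0.939-fold to 1.02-fold.

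Serpinb6a read 11.96 (mouse A), 12.13 (B), 12.16 (C) and 12.13 (D) with PD-L1-overexpressing targets. It read 11.89 (mouse A), 12.10 (B), 12.11 (C) and 12.08 (D) with PD-L1-depleted targets. The groups overlapped, but within each animal the array with PD-L1-overexpressing targets was the higher one, by 0.070 (mouse A), 0.032 (B), 0.048 (C) and 0.053 (D). The mean was 12.09 ± 0.093 with PD-L1-overexpressing targets, against 12.04 ± 0.11 with PD-L1-depleted ones (SD, n = 4 each). The difference of 0.050 (SE 0.023) did not pass (limma unadjusted p = 0.0516, adjusted p = 0.9995); its 95% interval ran from -0.00044 to 0.10. Of all tested genes, 842 (10.5%) also had 1 direction in all 4 mice.

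Serpinb6b read 12.04 (mouse A), 11.88 (B), 11.98 (C) and 11.76 (D) with PD-L1-overexpressing targets. With PD-L1-depleted targets the values were 11.97 (mouse A), 12.02 (B), 11.96 (C) and 11.80 (D). The groups overlapped and the animals disagreed in direction, 2 higher and 2 lower, with the widest step in mouse B at -0.14. The mean was 11.92 ± 0.12 with PD-L1-overexpressing targets, against 11.94 ± 0.099 with PD-L1-depleted ones (SD, n = 4 each), a difference of -0.022 (SE 0.034; limma adjusted p = 0.9995) with an interval of 0.934-fold to 1.04-fold.

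Serpinb1a was read by a pair of probe sets that disagreed. The brighter one read 6.17 (mouse A), 7.37 (B), 6.93 (C) and 6.76 (D) with PD-L1-overexpressing targets, and 6.28 (mouse A), 7.34 (B), 6.87 (C) and 6.64 (D) with PD-L1-depleted targets. The groups overlapped, and the spread between animals was far wider than the step between targets. The difference was 0.022, higher in 3 of 4 mice; with no filter on low values, where it could be tested, its interval ran from -0.13 to 0.17 (limma adjusted p = 0.998, 0% of 12393 genes called). The dimmer one averaged 4.59 ± 0.065 with PD-L1-overexpressing targets, against 4.70 ± 0.11 with PD-L1-depleted ones (SD, n = 4 each), with overlapping arrays, and was lower in 4 of 4 mice (mean difference -0.11, widest at -0.17 in mouse C). It lay far under the filter and was not tested.

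**Figure D1:**
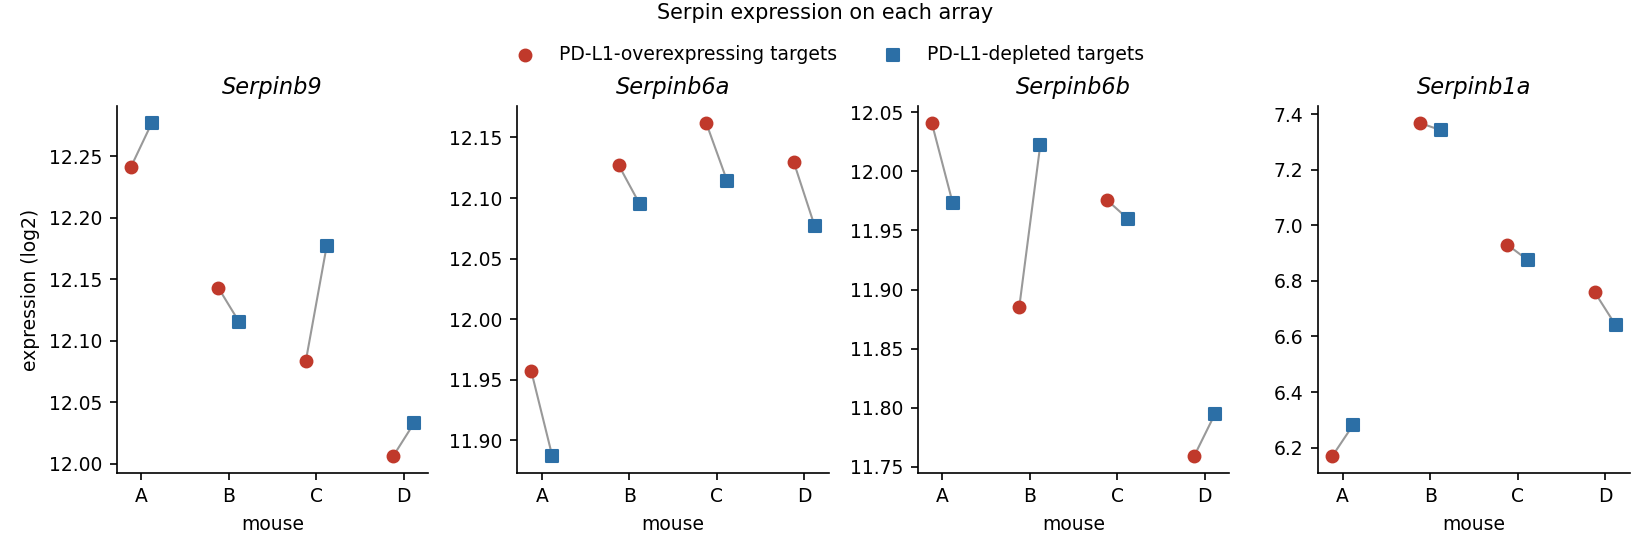
Expression (log2, vertical axis, a separate scale per gene) of the 4 measured serpins by mouse (horizontal axis), with a point per array: circles for PD-L1-overexpressing and squares for PD-L1-depleted targets, joined within a mouse. In 4 of 4 mice the circle of Serpinb6a lay above its square, Serpinb9 was highest in mouse A, and Serpinb1a ran from 6.17 in mouse A to 7.37 in mouse B.

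Markers of the targets were detected in these samples, and their mean difference had another sign in mouse B, so the serpins were set beside them. The mean of 14 tested markers of ID8 cells ran from 7.78 to 8.98 with PD-L1-overexpressing targets, against 7.75 to 8.89 with PD-L1-depleted ones. This mean differed by 0.83 (mouse A), -1.11 (B), 0.68 (C) and 0.74 (D), and none of the 14 passed between targets with all mice. Mouse B was singled out because these same markers had another sign there, so their p-values without it are not independent of that choice. The marker list was also chosen with earlier results of these data known. With mouse B left out, Upk3b (1.79, limma adjusted p = 7.36e-15), Cpe (2.12, adjusted p = 5.64e-15) and Mgst1 (2.09, adjusted p = 1.48e-15) passed. So did Msln, Krt18, Fn1, Col4a1, Sparc and Lgals7, while Krt8, Krt19, Epcam, Cav1 and Igfbp5 did not. The differences of Serpinb9 and Serpinb6b also had a sign in mouse B unlike that of some other animals, at sizes of 0.14 or less, and the difference of Serpinb6a was positive in mouse B too. Without mouse B, 2.20% of 8014 genes passed and none of the 3 tested serpins did: Serpinb9 differed by -0.052 (limma adjusted p = 0.453), Serpinb6a by 0.057 (adjusted p = 0.394) and Serpinb6b by 0.016 (adjusted p = 0.885). In bulk samples, fewer cells of a type and less RNA per cell cannot be told apart.

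Of 29 other protease, serpin and cystatin genes of the lists tested without mouse B, 2 passed there, where 2.20% of 8014 genes did. They are named here after their values were seen, in the fit that leaves out the mouse where the ID8 markers had another sign. Serpinh1, a serpin that serves as a collagen chaperone and inhibits no protease, differed by 1.26 (mouse A), 1.04 (C) and 1.03 (D) but by -1.47 (B); without B the difference was 1.11 (SE 0.058, limma adjusted p = 7.75e-11). Ctsl, the lysosomal protease cathepsin L, differed by 0.64 (A), 0.95 (C), 0.70 (D) and -0.75 (B), and by 0.76 without B (SE 0.054, adjusted p = 9.46e-09). With all mice neither passed (0.47, SE 0.38, and 0.39, SE 0.22; adjusted p = 0.9995 for each). Both followed the sign of the mean of the ID8 markers in each animal. Not every marker did: Igfbp5 differed by -0.15 (A), -0.12 (B), -0.22 (C) and -0.20 (D). The cell of origin of Serpinh1 and Ctsl was not tested.

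**Figure D2:**
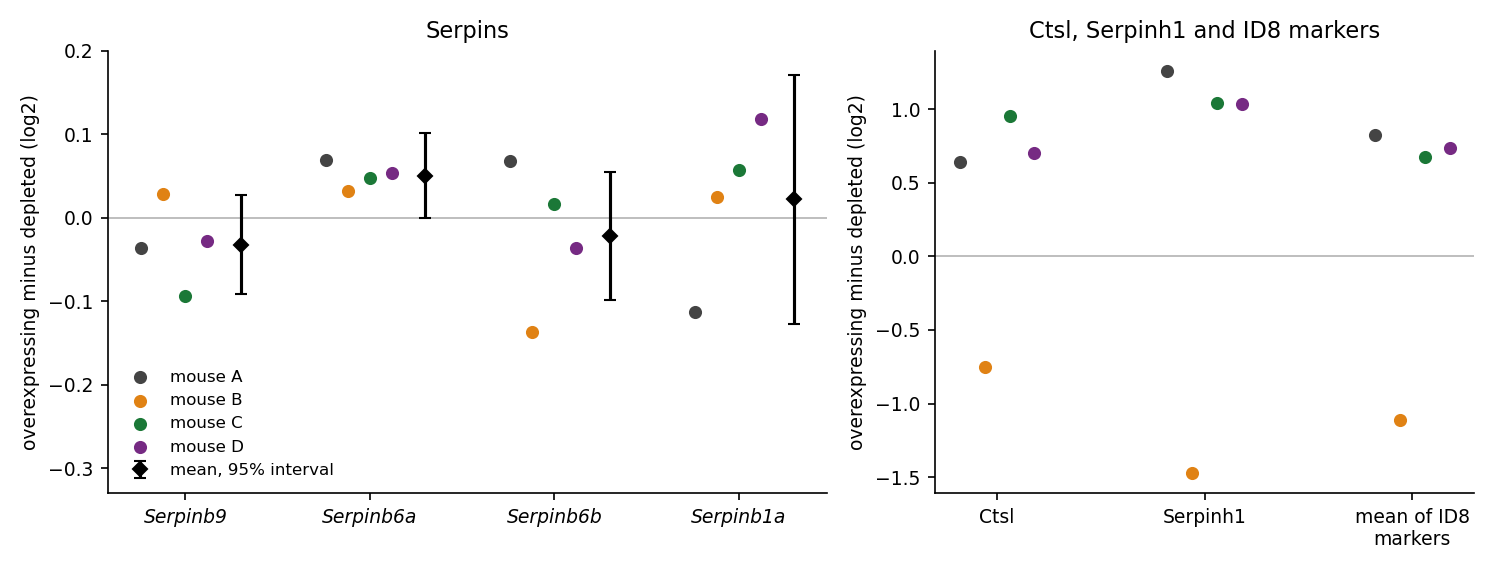
Difference between targets (PD-L1-overexpressing minus PD-L1-depleted, log2, vertical axes on unlike scales) in each mouse (coloured points) for the serpins, with the mean and its 95% interval (diamonds; for Serpinb1a from the fit with no filter), and for Ctsl, Serpinh1 and the mean of 14 ID8 markers. None of the serpin probe sets of the left panel moved by more than 0.14 in any mouse, while the 3 items of the right panel were positive in A, C and D and negative in B, at -0.75, -1.47 and -1.11.

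Next, the 4 animals were compared, each with 1 array per target, so the error of this test is the spread within an animal, between its pair of co-cultures. All 3 tested serpins passed the limma F test between mice, where 29.3% of all genes passed. The steps were modest: 1.18-fold between the highest and lowest mouse for Serpinb9 (adjusted p = 0.00775), 1.16-fold for Serpinb6a (adjusted p = 0.00338) and 1.17-fold for Serpinb6b (adjusted p = 0.0216). Their median range was 0.23 on the log2 scale, against 0.19 over all genes. Without a trend in the variance model Serpinb9 (adjusted p = 0.0582) and Serpinb6b (0.0902) no longer passed, where 20.6% of genes did. Without mouse A none of the 3 passed (adjusted p = 0.172 for Serpinb9, 0.731 for Serpinb6a and 0.0530 for Serpinb6b), and 6.72% of all genes did; the range of Serpinb6b over the remaining mice was 0.19, against 0.23 over all 4, and that of Serpinb6a 0.035, against 0.22. Without mouse D neither Serpinb9 (0.0902) nor Serpinb6b (0.703) passed, where 20.2% of genes did. Mouse accounted for 90.8% of the variance of Serpinb9, 91.5% of Serpinb6a, 83.3% of Serpinb6b and 98.9% of Serpinb1a, and for a median of 73.8% over tested genes.

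In mouse A the serpins split. Serpinb9, the granzyme B inhibitor, was higher there, at 12.26 against 12.09 in the mean of the other mice, a difference of 0.17 or 1.12-fold (SE 0.030; limma adjusted p = 0.00344; 18.1% of genes were called higher). Both arrays of mouse A, 12.24 and 12.28, lay above all 6 others, which ran up to 12.18. Serpinb6a was lower in mouse A, at 11.92 against 12.12, a difference of -0.20 (SE 0.026; adjusted p = 0.000629; 12.7% of genes were called lower). Its arrays in mouse A, 11.96 and 11.89, lay below all others, and without mouse A the remaining animals were within 0.035 of each other. Serpinb6b, the granzyme A inhibitor, averaged 12.01 in mouse A and 11.90 in the others, a difference of 0.11 (SE 0.039) that did not pass (limma adjusted p = 0.0673) and changed with the animals and settings. It was 0.13 without mouse B (adjusted p = 0.00179) and 0.046 without mouse D (adjusted p = 0.535), and its adjusted p was 0.0449 with robust variances and 0.155 without a trend.

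Mouse D was lowest for both granzyme inhibitors. Serpinb9 averaged 12.02 in mouse D and 12.17 in the others (-0.15, SE 0.030; limma adjusted p = 0.0151), and Serpinb6b 11.78 and 11.98 (-0.20, SE 0.039; adjusted p = 0.0151), where 4.09% of genes were called lower. Serpinb6a did not pass in mouse D (0.046, adjusted p = 0.323). Mouse A is among the others here. Without mouse A, 1 of the 4 serpins tested, Serpinb1a now among them, passed in D (2.05% of genes). Serpinb9 and Serpinb6b thus did not both keep their call. Without a trend 0 of 3 passed (4.42% of genes). In mice B and C none of the 3 tested serpins passed, where 9.26% and 8.43% of genes did. The order for Serpinb9 was A, then C and B with overlapping arrays, then D; for Serpinb6b, A, B and C overlapped and D lay below them; for Serpinb6a, B, C and D overlapped above A.

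Serpinb1a spread widest. It averaged 6.23 (mouse A), 7.36 (B), 6.90 (C) and 6.70 (D), a 2.19-fold range, while the arrays of 1 animal differed by at most 0.12. Neither arrays of mouse A nor those of mouse B overlapped those of any other animal. With no filter it passed the F test (limma adjusted p = 0.000155; 17.4% of 12393 genes passed), was lower in mouse A (-0.76, SE 0.077, adjusted p = 9.41e-05; 8.01% called lower) and was higher in mouse B by 0.75 (SE 0.077, adjusted p = 0.000382; 3.74% called higher). Its dim probe set ran from 4.56 in D to 4.74 in C and gave another order, so the range rests on 1 probe set; with the mean of both it was 0.60, against 1.13. The levels of mice A and D lay under the filter.

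**Figure D3:**
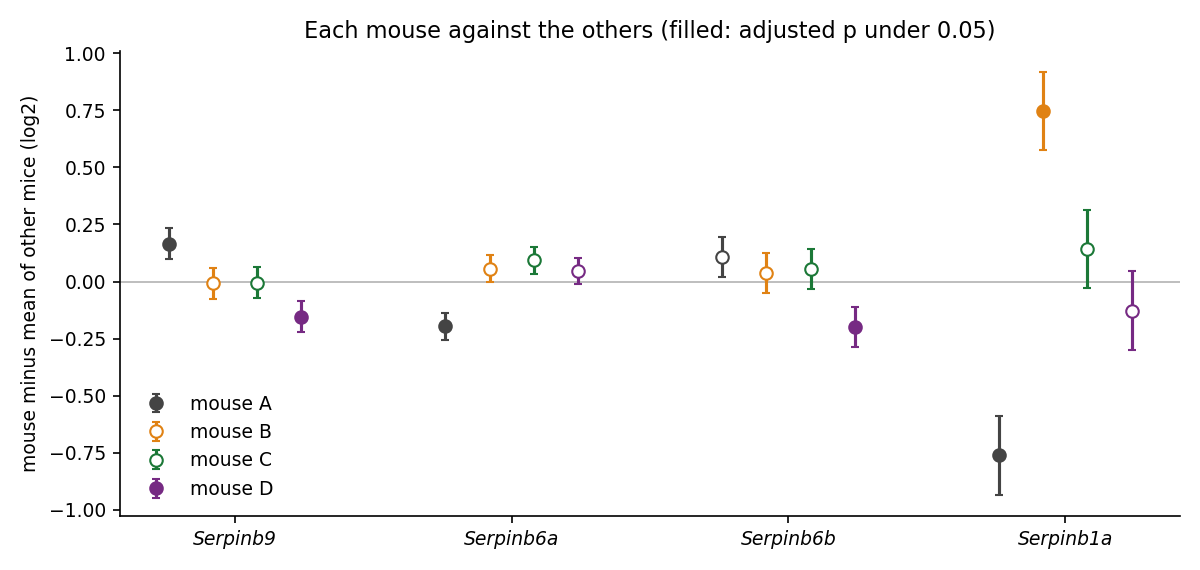
Level of each serpin in a mouse minus the mean of the other mice (log2, vertical axis), with 95% intervals, colours for mice and filled points for an adjusted p under 0.05 (Serpinb1a from the fit with no filter). Mouse A was 0.17 above the others for Serpinb9 and stood at -0.20 for Serpinb6a, and Serpinb1a ran from -0.76 in mouse A to 0.75 in mouse B.

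The proteases that these serpins are known to inhibit stood as follows. In mouse A, 6 of the 7 tested granzymes also lay above the filter level, and all 6 were called lower there (median difference -2.08), where 12.7% of all genes were. None of the 7 passed between targets. Gzma, the protease of Serpinb6b, averaged 8.62 in mouse A, against 12.06 in B, 10.95 in C and 10.64 in D, 6.06-fold lower than the mean of the others (limma adjusted p = 1.84e-09). Gzmb, the protease of Serpinb9, averaged 14.56 in mouse A, against 14.61 in B, 14.70 in C and 14.66 in D (-0.096, SE 0.017, adjusted p = 0.00315), near the top of the scale of these arrays; it is named as that protease, after its values were seen. Gzmd and Gzme, granzymes of activated mouse T cells, were 9.17-fold and 5.44-fold lower in mouse A, and Gzmg averaged 5.72 in mouse A, under the filter level, so no fold is given, and 9.38 to 10.11 in the others; these 3 are near-identical copies that one probe set may not tell apart. Of the 7 granzymes, 5 were called higher in mouse B, 7 in C and 5 in D, with none lower, where 6.30%, 3.09% and 4.56% of all genes were called higher; mouse A is among the others in each. In the same contrasts Serpinb9 stood at -0.0073 (B), -0.0053 (C) and -0.15 (D), and Serpinb6b at 0.036 (B), 0.056 (C) and -0.20 (D), of which those of mouse D passed.

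Cathepsins went both ways in mouse A, as did all tested genes (18.1% called higher and 12.7% lower). Of 12 cathepsins tested, 10 lay above the filter level there, 4 of them higher and 2 lower, with a median of 0.075. Ctsb (cathepsin B) was higher by 0.25 (SE 0.035, limma adjusted p = 0.000838), Ctsz by 0.48 (adjusted p = 4.74e-06) and Ctss by 0.14 (adjusted p = 0.0303), while Ctsw, a cathepsin of killer cells, was lower (-1.06, adjusted p = 4.26e-08). Granule genes of neutrophils and mast cells, proteases apart from the peroxidase gene Mpo, gave little signal, as 6 of 7 lay under the filter. The remaining one, Ctsg, the cathepsin G that Serpinb6a inhibits in other settings, ran from 6.74 to 7.22. Ctsg did not pass between mice (limma F test adjusted p = 0.200). Elane, the neutrophil elastase that Serpinb1a is known to inhibit, averaged 6.59 (mouse A), 6.49 (B), 6.73 (C) and 6.58 (D), with a mean under the filter; it too is named after its values were seen.

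Other protease inhibitors were mostly dim. Of 10 other clade B serpins on the array, 9 lay under the filter. The tested one, Serpinb9b, a close relative that follows Serpinb9 on the chromosome, averaged 10.20 in mouse A, against 9.69 in B, 9.93 in C and 9.81 in D; it was higher in A by 0.39 or 1.31-fold (SE 0.053, limma adjusted p = 0.000693) and differed by -0.0018 between targets. Cross-hybridisation between such related transcripts was not tested. Among 6 tested serpins of other clades, Serpinc1 (antithrombin) was lower in mouse A (-0.51, adjusted p = 0.000261), Serpinf1 passed between mice (adjusted p = 0.00092) with its highest mean, 9.94, in mouse C, and Serpina3n (adjusted p = 0.402) and Serpinf2 (adjusted p = 0.183) did not pass between mice. Of the cystatins, inhibitors of cysteine cathepsins, Cst3 was higher in mouse A by 0.40 (adjusted p = 2.99e-06), Cst7, an inhibitor made by killer cells, was lower (-0.20, adjusted p = 0.000746), and Cstb did not pass (-0.038, adjusted p = 0.321). None of these lists had a member that passed between targets.

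**Figure D4:**
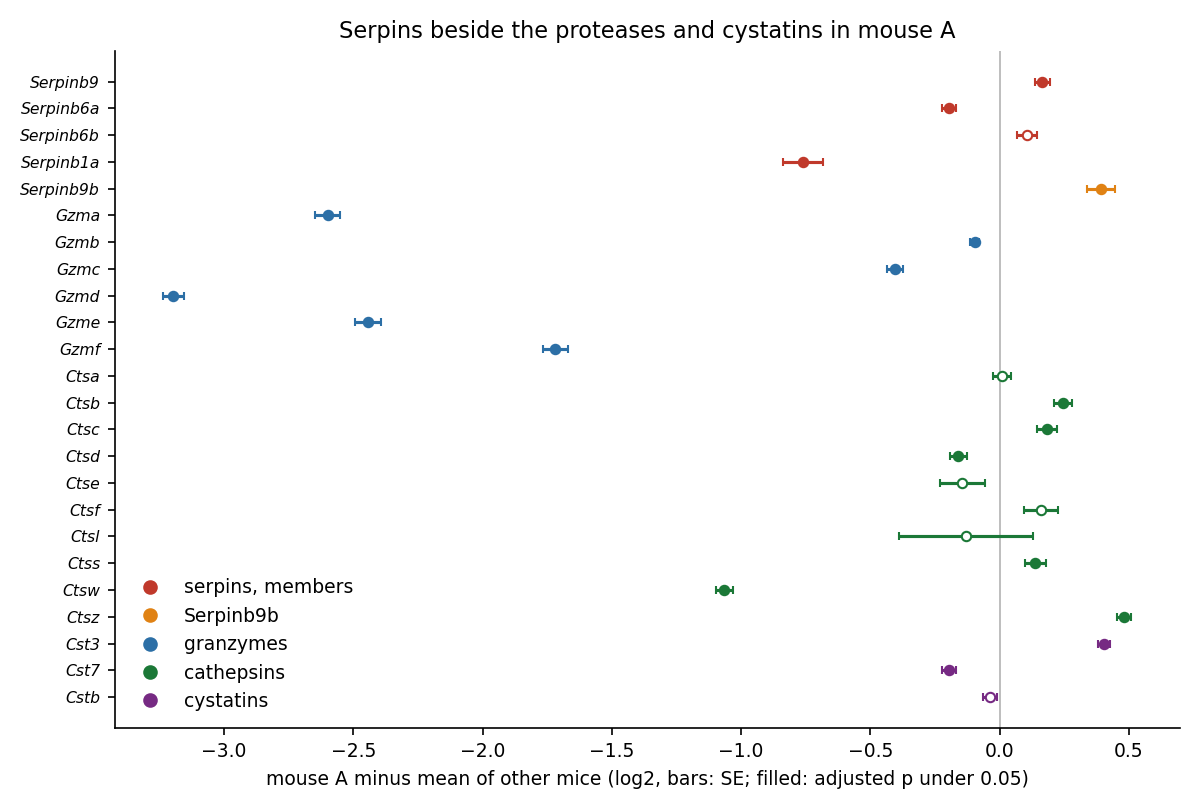
Mouse A minus the mean of the other mice (log2, horizontal axis) for the 4 serpins, Serpinb9b, and the tested granzymes, cathepsins and cystatins whose level in mouse A was above the filter, with the SE as bars and filled points for an adjusted p under 0.05 (Serpinb1a from the fit with no filter). The 6 granzymes lay from -3.20 to -0.096, Serpinb9 and Serpinb9b at 0.17 and 0.39, and Serpinb6a and Serpinb1a at -0.20 and -0.76.

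Serpinb9 and other serpin genes are known to respond to inflammatory signals. Of 25 tested genes responsive to interferon gamma or NF-kB, mouse A had 4 higher and 16 lower (median -0.22), where 18.1% and 12.7% of all genes were. Cxcl10, 1 of the 16, lay under the filter level there. In mouse B 17 were higher and 0 lower, where 504 and 237 of all 8003 genes were. Mouse C had 1 higher and 12 lower (all genes: 247 and 428), and mouse D 8 higher and 4 lower (all genes: 365 and 327). Gbp2, an interferon-induced GTPase, averaged 10.41 (mouse A), 11.74 (B), 10.92 (C) and 11.61 (D), and Iigp1, another, 7.13, 9.09, 7.54 and 9.02 in the same mice. Gbp3, of the same kind as Gbp2, and Psmb9, an inducible proteasome subunit, were lower in mouse A too (-0.76 and -0.36). The 4 called higher in mouse A, no larger a share than over all genes, are named after their values were seen. They were Cd274 (PD-L1 itself, 0.54), Nfkb2, an NF-kB subunit (0.50), Socs1 (0.18) and Tnfaip3 (0.11). Nfkb2 averaged 11.27 (mouse A), 10.92 (B), 10.72 (C) and 10.66 (D), highest in A and lowest in D as was Serpinb9, whereas Gbp2 and Iigp1 were lowest in A. Most other NF-kB genes of the list, also named after their values were seen, did not share that order. Rel (-0.24), Bcl3 (-0.30), Nfkbie (-0.23), Traf1 (-0.20), Birc3 (-0.17) and Icam1 (-0.16) were called lower in mouse A. Rela, Relb and Nfkbia did not pass there. None of these 25 passed between targets.

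Markers of the T cells and of other cells were compared between the animals too. The mean of 8 CD8 T cell genes reached 12.38 and 12.40 in mouse A and 12.46 to 12.48 in the others; 4 of 8 were called lower in mouse A and 1 (Cd2) higher. Of the ID8 markers 2 of 14 (Krt8 and Cav1) were called lower in mouse A. Over all genes 12.7% were called lower there and 18.1% higher, so the ID8 count was near the share over all genes. Of the B cell markers 3 of 4 tested were lower in A (H2-Aa among them, under the filter level there), with a mean of 10.02 and 10.05 there and 10.19 to 11.35 elsewhere, while 6 of 10 on the array, Cd79a, Ms4a1 and Pax5 among them, lay under the filter. Macrophage and dendritic cell markers had 1 of 2 lower (Cd68) and 7 of 9 under the filter, and neutrophil and mast cell markers 1 of 2 lower (Kit) and 7 of 9, Elane, Mpo, S100a8 and S100a9 among them, under it. All 3 NK markers and 3 of 5 CD4 and regulatory T cell markers lay under the filter. The part of these markers in the serpin differences was not tested.

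Across the 8 arrays, which come in pairs from 4 animals, Serpinb9 correlated with Serpinb6b at r = 0.73 and with Serpinb6a at r = -0.77, and Serpinb6a with Serpinb1a at r = 0.77. Serpinb9 and Serpinb1a (r = -0.44), Serpinb6a and Serpinb6b (r = -0.38) and Serpinb6b and Serpinb1a (r = -0.099) tracked each other less closely. The tested genes most like Serpinb9 were Cd70, a ligand for the costimulatory receptor CD27 (r = 0.98), Stat5a, a transcription factor of cytokine signalling (0.98), Spint2, an inhibitor of serine proteases (0.97), Cd83, a surface protein of activated cells (0.97), and Zfp64 (0.97); Hmox1 (-0.97) and Msmo1 (-0.96) were most opposed. Cd70 ranged over mice by 0.81 and Cd83 by 0.94, against 0.24 for Serpinb9.

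For Serpinb6a the likest genes were Anxa5, a phospholipid-binding annexin (r = 0.99), Atp5g2 and Ndufb10, subunits of mitochondrial enzymes (0.98 and 0.97), Zfp277 (0.98) and Cmtm7 (0.97), with Strn4 (-0.99) and Dnm2 (-0.97) opposed. For Serpinb6b they were Map3k11, a kinase (r = 0.97), Fndc3a (0.96), Spred2, a brake on Ras signalling (0.95), Casc3 (0.93) and Nfic (0.93), with Bckdk and Gpn3 (both -0.96) opposed. For Serpinb1a they were Afg3l2, a mitochondrial protease subunit (r = 0.99), Bnip3 (0.99), Gramd1a (0.99), Pcyt1a (0.99) and Crip1 (0.98), with Psph and Cdc123 (both -0.98) opposed. These are descriptions of 8 arrays, picked as extremes out of 8003 genes.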

How the data were processed

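RNA on 3' expression arrays was measured in 8 samples. The log2 values were deposited by the authors, 1 per probe set and array; their log2 scale was inferred from their range, and how probes were summarised and normalised is not given in the sources used here. The table held 0 columns of other samples. Of 22626 probe sets apart from 64 controls, 20380 had 1 gene symbol, 691 several and 1555 none; no gene was named from several. Each gene was read from its probe set of highest mean. A filter at 6.87 kept 4390 genes out of the tests.

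Tests used limma 3.58.1 in R 4.3.3 (lmFit, eBayes, variance trend). They were two-sided, and p-values were adjusted by Benjamini-Hochberg over all tested genes, with a threshold of 0.05. Mouse was a fixed block between targets, as the series design and titles give the pairing; after group means were subtracted, the pair of arrays of each animal correlated at 0.82 (mouse A), 0.16 (B), 0.61 (C) and 0.64 (D). Mice were compared by the F test and each against the mean of the other 3, with the target as covariate. Steps were tested on simulated data.

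The members, the 7 gene lists and 7 marker lists were chosen with earlier results of these data known. Named were the members, the 5 most like and 2 most opposed genes of each by Pearson r, and up to 4 genes of each list with the smallest F test p; exceptions are marked where they stand. Alternatives covered the block, normalisation, filter, probe sets, variance model, threshold and leaving out each mouse.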

Additional observations from a re-analysis of the deposited data

Results flagged for a closer look

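Serpinb6a of mouse A stood far below the other 3 animals with either target. The distance between mouse A and its nearest neighbour took up 0.830 of the group's range with PD-L1-overexpressing targets (11.96 against 12.13 to 12.16) and 0.835 with PD-L1-depleted targets (11.89 against 12.08 to 12.11). The other 8 groups of serpin values held no array that far from the rest; chance alone gives about 1 such group in 20. Both arrays hold cells of the same animal, so they are not independent of each other.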

How the results depend on the processing

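None of the serpins passed between targets under any of 15 alternatives, among them no replicate block (0 called) and the mouse as a random block (0). No gene at all passed in any of these except the fit without mouse B, where 2.20% of 8014 genes did. The differences of Serpinb9 and Serpinb6a kept their sign in all 15, that of Serpinb9 at -0.052 to -0.012 when a mouse was left out (smallest without C). That of Serpinb6b turned to 0.016 without mouse B (-0.053 to 0.016 over the fits that left out a mouse), and that of Serpinb1a to -0.045 with the mean of its probe sets and to -0.010 without mouse D (up to 0.067 without A). The number of serpins called between mice, 3, became 1 by eBayes without a trend and 1 to 3 when a mouse was left out: without A Serpinb1a, then above the filter, and without D Serpinb6a. The count over all genes moved too, from 2347 of 8003 to 1652 without a trend. It was 539 of 8015 without A, 3557 of 8014 without B, 1885 of 7996 without C and 1615 of 8000 without D. The 2 serpins called in mouse D became 0 without a trend and 1 to 2 when a mouse was left out (1 without A, with Serpinb1a then among those tested). Over all genes, 692 of 8003 were called in mouse D, and 354 without a trend. The count was 164 of 8015 without A, 1800 of 8014 without B and 957 of 7996 without C. Serpinb9 was called higher and Serpinb6a lower in mouse A under all 12 alternatives that hold mouse A. The limma adjusted p for Serpinb9 ran from 4.88e-05 to 0.0446. Over all genes, 1637 (without D) to 3519 (without B) were called in mouse A in either direction. Apart from the genes tested and samples left out, the cause of these changes was not tested. Serpinb1a has signal near the filter, where array values are least certain.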
